A study of Mus musculus with 2 samples.

Results

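A set of 9 genes that write, erase or read DNA methylation were measured in total RNA of the embryonic mouse forebrain. They were chosen by name as the maintenance machinery (Dnmt1, Uhrf1), the de novo methyltransferases (Dnmt3a, Dnmt3b), the TET dioxygenases (Tet1, Tet2, Tet3) and 2 methyl-CpG-binding proteins (Mbd1, Mbd2). They are 9 of the 43346 Ensembl genes in the files, and all were found. The series holds 2 libraries of 1 group, untreated forebrain of strain B6NCrl at embryonic day 14.5, numbered by the labels as biological replicates 1 and 2. Each is labelled as the forebrain of one pup and the collection days differ, yet the sex label reads pooled and both carry the same donor identifier, so the spread between the libraries may be partly technical. Input was 10 ng of RNA above 200 nt for each, and the libraries held 35310017 expected counts in replicate 1 and 29250404 in replicate 2. There is no second group, so the comparisons are those between genes and transcripts within each library and those between the 2 libraries. Values are given for replicate 1 and then replicate 2, and errors are SDs (n = 2).

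In mammals a methyl group sits mostly on the cytosine of the dinucleotide CG. DNMT1 copies the mark onto the new strand after replication, guided by UHRF1, which binds hemimethylated CG, while DNMT3A and DNMT3B set new marks. TET enzymes oxidise 5-methylcytosine to 5-hydroxymethylcytosine and further products that base excision repair can replace. MBD1 and MBD2 bind methylated CG and recruit repressors. The developing brain is known for a fall of Dnmt3b as neurogenesis starts, for lasting Dnmt3a, and for 5-hydroxymethylcytosine that builds up in neurons.

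Marker levels describe the cells in the tissue but do not test its label, since the genes of every list were detected. All 7 radial glia genes and all 6 neuron genes listed were at 1 TPM or more in both libraries, with summed levels of 2104 and 2104 TPM for radial glia and 3511 and 4136 TPM for neurons. The 7 cycling genes summed to 812.9 and 675.6 TPM. Markers of other cells were present too, with red blood cell genes at 11279 and 13964 TPM, endothelial genes at 119.3 and 130.6 TPM and microglial genes at 101.4 and 109.4 TPM, and no gene of these lists was at 0. In bulk tissue, fewer cells of a type and less RNA per cell cannot be told apart.

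Several of these genes have more than 1 annotated start or protein form, and the sequences that separate the forms carry much of what follows. The first set holds the 250 bases upstream of RefSeq starts of Dnmt1, Uhrf1 and Dnmt3a (RefSeq on GRCm38.p6), shown because the transcripts of these 3 genes divide between starts. Every CG, the substrate of the encoded enzymes, is in capitals. The letters CG read the same on both strands. Of the 32851 mouse promoter windows of 300 bases in the table, 94.6% held at least 1 CG, with a median of 7, and windows were found for 7 of the 9 genes (12 windows).
Dnmt1 upstream start, chr9:20959889-20960138, minus strand: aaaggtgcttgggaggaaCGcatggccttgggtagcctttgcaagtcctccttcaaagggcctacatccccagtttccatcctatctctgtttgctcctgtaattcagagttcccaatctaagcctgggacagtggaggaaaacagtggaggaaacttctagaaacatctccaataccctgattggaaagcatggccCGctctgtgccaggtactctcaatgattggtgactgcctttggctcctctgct
Dnmt1 middle start, chr9:20952980-20953229, minus strand: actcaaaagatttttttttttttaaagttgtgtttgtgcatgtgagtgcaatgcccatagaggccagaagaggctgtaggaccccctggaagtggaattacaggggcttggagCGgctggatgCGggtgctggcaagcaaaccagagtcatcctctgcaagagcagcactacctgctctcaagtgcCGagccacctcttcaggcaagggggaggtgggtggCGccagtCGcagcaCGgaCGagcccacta
Dnmt1 downstream start, chr9:20952624-20952873, minus strand: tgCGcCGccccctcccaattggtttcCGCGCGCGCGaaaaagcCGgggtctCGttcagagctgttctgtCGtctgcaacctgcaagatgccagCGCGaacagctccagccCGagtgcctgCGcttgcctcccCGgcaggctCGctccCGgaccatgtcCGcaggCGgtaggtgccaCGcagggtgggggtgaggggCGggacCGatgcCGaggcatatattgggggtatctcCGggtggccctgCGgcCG
Uhrf1 upstream start, chr17:56303087-56303336, plus strand: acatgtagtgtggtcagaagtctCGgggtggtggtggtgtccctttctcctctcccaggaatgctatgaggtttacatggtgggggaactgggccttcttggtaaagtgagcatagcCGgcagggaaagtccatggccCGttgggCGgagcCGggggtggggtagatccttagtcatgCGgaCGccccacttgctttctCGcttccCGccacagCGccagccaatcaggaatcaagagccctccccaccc
Uhrf1 downstream start, chr17:56304063-56304312, plus strand: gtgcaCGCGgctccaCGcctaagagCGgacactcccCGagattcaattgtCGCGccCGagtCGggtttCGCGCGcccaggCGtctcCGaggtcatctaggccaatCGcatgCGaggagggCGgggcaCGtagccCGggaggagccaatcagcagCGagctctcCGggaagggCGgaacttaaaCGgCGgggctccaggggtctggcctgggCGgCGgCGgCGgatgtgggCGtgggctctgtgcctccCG
Dnmt3a upstream start, chr12:3806730-3806979, plus strand: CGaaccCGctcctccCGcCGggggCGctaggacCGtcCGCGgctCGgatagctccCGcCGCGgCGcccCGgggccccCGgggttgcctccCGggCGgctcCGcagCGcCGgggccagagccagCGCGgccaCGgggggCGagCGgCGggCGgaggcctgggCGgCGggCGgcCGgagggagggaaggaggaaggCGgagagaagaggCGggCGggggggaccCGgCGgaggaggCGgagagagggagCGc
Dnmt3a internal start, chr12:3891494-3891743, plus strand: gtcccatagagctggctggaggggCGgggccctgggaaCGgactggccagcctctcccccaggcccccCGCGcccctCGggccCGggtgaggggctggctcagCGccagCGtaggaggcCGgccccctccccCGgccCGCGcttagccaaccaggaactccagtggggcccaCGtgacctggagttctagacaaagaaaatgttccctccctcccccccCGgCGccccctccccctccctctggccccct

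The starts differ widely in CG. The window of the Dnmt1 upstream start, with 50 bases past the start included, held 2 CG, and 14.1% of all windows held fewer. The middle start of Dnmt1 held 12, more than 60.4% of windows, and its downstream start 33, more than 91.4%. Uhrf1 had the same pair of values, 12 at its upstream and 33 at its downstream start. The Dnmt3a upstream start held 46 CG, more than 98.4% of windows, against 18 at its internal start, more than 70.3%. Of the members not printed, Tet2 held 57, more than 99.8% of windows, Dnmt3b 30, Tet3 22 and Tet1 17. The Tet1 window lay 7310 bases from the nearest start of the transcript models counted here.

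The second set holds coding sequence from the GRCm38 genome that is present in one protein form and absent from another, with a start codon in capitals where the segment holds one. Segments of Dnmt1 and Dnmt3a open the longer forms, the segment of Uhrf1 is 8 codons long, and the 3 exons of Dnmt3b are skipped in its shortest form.
Dnmt1, first coding segment of the 1620-residue form, chr9:20952708-20952787, minus strand: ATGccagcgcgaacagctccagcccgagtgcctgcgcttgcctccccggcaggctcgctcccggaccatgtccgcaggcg
Dnmt3a, first coding segment of the 908-residue form, chr12:3835198-3835260, plus strand: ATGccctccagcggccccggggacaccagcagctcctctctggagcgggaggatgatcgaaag
Uhrf1, segment of the 782-residue form, chr17:56313041-56313064, plus strand: cccctcctgccctccggaacacag
Dnmt3b, 60-base exon, chr2:153670849-153670908, plus strand: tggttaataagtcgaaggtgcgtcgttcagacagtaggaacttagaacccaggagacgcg
Dnmt3b, 70-base exon, chr2:153683608-153683677, plus strand: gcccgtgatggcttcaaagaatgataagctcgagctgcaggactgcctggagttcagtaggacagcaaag
Dnmt3b, 119-base exon, chr2:153684359-153684477, plus strand: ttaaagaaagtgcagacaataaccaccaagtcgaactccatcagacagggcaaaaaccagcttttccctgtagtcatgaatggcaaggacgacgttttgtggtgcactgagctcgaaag

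All 9 genes were expressed, and their levels spanned about an order of magnitude. The unit is TPM, which divides reads by transcript length and scales each library to the same sum, and each deposited TPM comes with an interval whose confidence level the files do not state. Uhrf1 stood first by mean at 36.39 ± 4.46 TPM and Dnmt3b last at 2.79 ± 0.198 TPM. Among the 21461 nuclear protein-coding genes the members lay between the 45.9th and the 82.1st percentile, and the median of the 12795 such genes at 1 TPM or more in both libraries was 18.15 and 20.6 TPM. Neighbours in the order of mean TPM had intervals apart in both libraries in 3 of 8 cases, Tet3 above Tet1, Mbd1 above Mbd2 and Tet2 above Dnmt3b. Neighbours among Uhrf1, Dnmt1 and Tet3, and among Tet1, Dnmt3a and Mbd1, were not apart in both libraries, and Tet3 stood first in replicate 2 where Uhrf1 stood first in replicate 1.

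**Figure D1:**
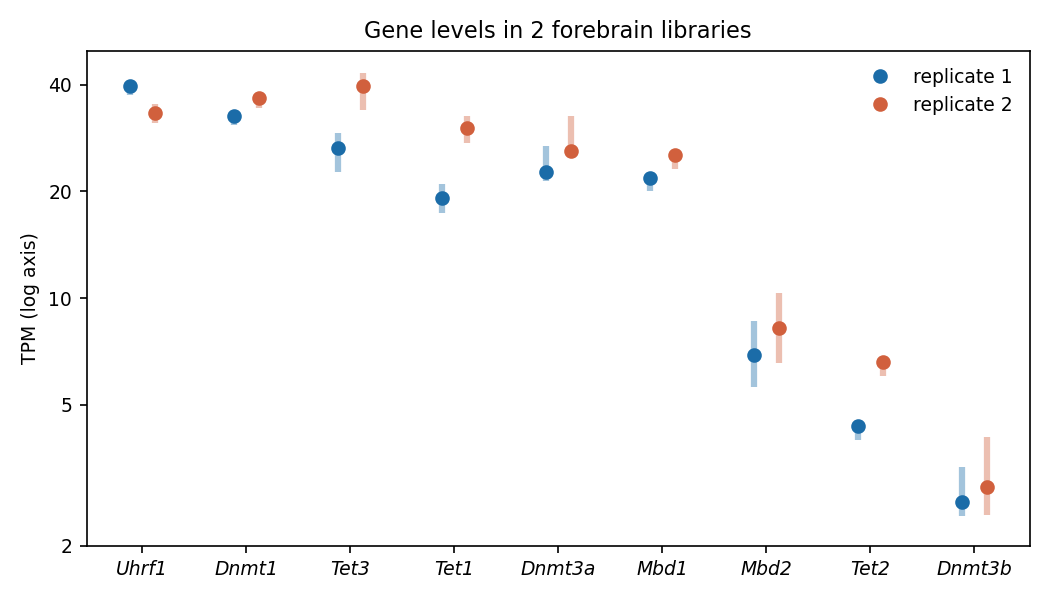
TPM (log axis) of the 9 genes in replicate 1 and replicate 2, ordered by mean, with the deposited interval of each value as a bar. Uhrf1, Dnmt1 and Tet3 lay between 26.52 and 39.73 TPM, Mbd2, Tet2 and Dnmt3b lay at 8.25 TPM or below, and Tet1, Tet2 and Tet3 were farther apart between the libraries than the other genes.

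Dnmt1, the maintenance methyltransferase (ENSMUSG00000004099.11, chr9:20907209-20959888, minus strand), had 32.59 and 36.78 TPM from 3916 and 3404 expected counts. Uhrf1, its hemimethylated-CG-binding partner and a ubiquitin ligase (ENSMUSG00000001228.10, chr17:56303321-56323486, plus strand), had 39.55 and 33.24 TPM from 2956.82 and 1964.65 counts. Dnmt1 was therefore the lower of the pair in replicate 1 and the higher in replicate 2. The log2 ratio of Dnmt1 over Uhrf1 was −0.28 and 0.15, a mean of −0.07 ± 0.30, and their intervals lay apart in replicate 1 alone. In counts not divided by length the mean log2 ratio was 0.60, the opposite direction.

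Dnmt1 transcripts divided between the starts printed above. Dnmt1-201, which begins at the middle start and encodes the 1620-residue enzyme of somatic cells, held 62.63% and 68.25% of the gene's TPM, at 20.41 and 25.11 TPM. Dnmt1-202, which begins at the CG-poor upstream start and encodes 1501 residues, held 33.41% and 28.67%, at 10.89 and 10.55 TPM. The upstream first exon is known from the mouse oocyte, whose enzyme lacks the first residues of the somatic form. Dnmt1-203, from the CG-rich downstream start, held 3.95% and 3.08%. The intervals of Dnmt1-201 (17.36 to 22.05 and 21.65 to 26.35 TPM) lay above those of Dnmt1-202 (8.505 to 12.91 and 8.299 to 12.7 TPM) in both libraries. Dnmt1-202 has 156 bases found in neither other model, and Dnmt1-201 has 275 of its own. Dnmt1-201 also holds a 3-base coding segment, away from the starts, that Dnmt1-202 lacks. Which reads set the share of Dnmt1-202 was not tested. By counts Dnmt1-202 took 1283.73 and 957.34. The 80-base segment printed above lies inside the window upstream of the downstream start, so that window is in part exon of Dnmt1-201.

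Uhrf1 transcripts divided differently between starts in the 2 libraries. The upstream start, used by Uhrf1-201 and Uhrf1-203, held 47.0% and 66.5% of the TPM, and the downstream start, used by Uhrf1-204 and Uhrf1-202, held 50.0% and 32.0%. In TPM the upstream start gave 18.6 and 22.1 and the downstream start 19.79 and 10.63. Uhrf1-204 had 19.32 (interval 13.9 to 21.61) and 9.03 TPM (2.693 to 12.32), intervals that do not overlap, and Uhrf1-201 had 4.87 (1.239 to 12.07) and 15.11 TPM (8.923 to 20.62), intervals that do. Uhrf1-203 held 34.72% and 21.04%. The starts lie close together and neither Uhrf1-203 nor Uhrf1-204 has a base of its own, so the split between single transcripts is uncertain. How many reads separate the starts was not counted. By protein form, transcripts with the 24-base segment (782 residues) were at 24.19 and 24.14 TPM, 61.1% and 72.6% of the gene, and those without it (774 residues) were at 14.2 and 8.59 TPM, 35.9% and 25.8%. The latter came mainly from Uhrf1-203, whose intervals overlapped between the libraries (6.304 to 17.75 and 2.281 to 10.86 TPM).

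The de novo enzymes differed by almost an order of magnitude. Dnmt3a (ENSMUSG00000020661.11, chr12:3806007-3914443, plus strand) had 22.75 and 26.01 TPM from 3625 and 3404 counts, and Dnmt3b (ENSMUSG00000027478.11, chr2:153649450-153687730, plus strand) had 2.65 and 2.93 TPM from 231.73 and 151.83 counts. The intervals were far apart in both libraries, and Dnmt3a was 8.58-fold and 8.88-fold higher, a log2 ratio of 3.13 ± 0.03. Dnmt1 stood above both, by a log2 ratio of 0.51 ± 0.01 over Dnmt3a and 3.64 ± 0.02 over Dnmt3b. The step from Dnmt3a to Dnmt1 depended on length, since the log2 ratio of the counts alone was 0.06. The Dnmt3a TPM of replicate 2 lay below its own deposited interval (26.35 to 32.66 TPM), which is set around another estimate, the posterior mean of 29.46 TPM.

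Over all transcripts, the 3 methyltransferases had almost the same proportions in the 2 libraries. Dnmt1 made up 56.2% and 56.0% of their summed TPM, Dnmt3a 39.2% and 39.6%, and Dnmt3b 4.57% and 4.46%. The sums were 57.99 and 65.72 TPM. The Dnmt3b share included retained-intron models, which gave 0.1 and 0.76 TPM from 1.16 and 7.49 counts. Over transcripts annotated as protein coding, Dnmt3b had 2.56 and 2.16 TPM and its share was 4.46% and 3.40%. Over all its transcripts, its counts per depth in replicate 2 were 0.791 times those in replicate 1.

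Dnmt3a was made mainly as its long form. The 908-residue protein, which holds the N-terminal region opened by the printed 63-base segment, took 53.5% and 61.2% of the TPM, at 12.16 and 15.92 TPM, nearly all from Dnmt3a-201. The 689-residue form, known as DNMT3A2 and abundant in embryonic stem cells, begins at the internal start and took 32.9% and 26.7%, at 7.48 and 6.94 TPM, all from Dnmt3a-203. The long form was above the short form in both libraries, with intervals of 11.01 to 12.31 and 14.2 to 15.95 TPM for Dnmt3a-201 against 6.337 to 8.064 and 5.435 to 7.753 TPM for Dnmt3a-203. Of the expected counts the long form held 73.5% and 79.0%. The start of Dnmt3a-201 lies 50 bases past the RefSeq start whose upstream window is printed. The remaining TPM fell mostly on fragments, with Dnmt3a-210 of 501 nt at 10.99% and 2.1% of TPM but only 23.01 and 3.87 counts, and 8 of the 18 transcripts had 0 counts in both libraries.

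Dnmt3b was too low for its transcripts to be told apart. None of its 12 transcripts reached 1 TPM in both libraries, and no complete coding one has a base of its own. Dnmt3b-205 held 55.21% in replicate 1 and 0% in replicate 2, Dnmt3b-206 held 1.06% and 42.43%, Dnmt3b-207 10.58% and 25.37%, Dnmt3b-209 29.26% and 0%, and the retained-intron model Dnmt3b-212 3.81% and 16.77%. Grouped by protein, one form held a large share in both libraries. The 776-residue form, which lacks the 3 exons printed above, held 56.4% and 42.5%, the 860-residue form with all of them held 10.5% and 31.5%, and the 839-residue form held 29.3% and 0%. The 70-base and 119-base exons encode part of the catalytic domain, and the form without them, DNMT3B3, is known to lack catalytic activity. By posterior mean TPM the 776-residue share was 38.0% and 23.1%, so the share of the short form depends on the estimate used.

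**Figure D2:**
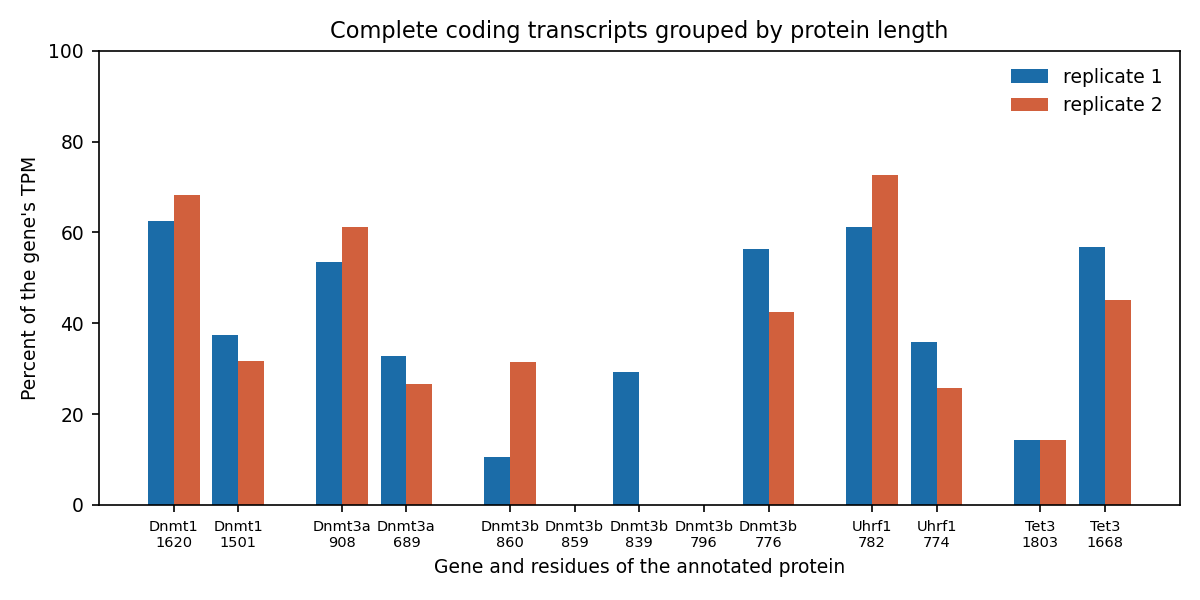
Percent of each gene's TPM held by complete coding transcripts, grouped by the length of the annotated protein, for 5 genes in replicate 1 and replicate 2. The 1620-residue Dnmt1, 908-residue Dnmt3a and 782-residue Uhrf1 were ahead of the other forms in both libraries, whereas the order among the longer Dnmt3b forms changed, with the 839-residue form at 29.3% and 0%.

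Over all transcripts of each gene, Tet3 was the highest of the TET genes and Tet2 the lowest. Tet3 (ENSMUSG00000034832.11, chr6:83362373-83459084, minus strand) had 26.52 and 39.73 TPM from 4385 and 4211 counts. Tet1 (ENSMUSG00000047146.11, chr10:62804570-62908996, minus strand) had 19.13 and 30.28 TPM from 1924 and 1956 counts. Tet2 (ENSMUSG00000040943.8, chr3:133463679-133545139, minus strand) had 4.36 and 6.59 TPM from 906 and 1055 counts. All 3 were higher in replicate 2, and their intervals lay apart from each other within each library. Tet3 exceeded Tet1 by a log2 ratio of 0.43 ± 0.06 and Tet2 by 2.60 ± 0.01, and Tet2 stood below Tet1 at −2.17 ± 0.05. These steps depended on which Tet1 transcripts were included: over transcripts annotated as protein coding, Tet3 over Tet1 was 1.53 and Tet2 over Tet1 −0.95, and in counts not divided by length they were 1.15 and −0.99. Over all transcripts the proportions were close in the 2 libraries, with Tet3 at 53.0% and 51.9% of the family's TPM, Tet1 at 38.3% and 39.5%, and Tet2 at 8.72% and 8.60%, while the sum went from 50.01 to 76.6 TPM.

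For Tet1, however, most of the TPM was assigned to models other than that of the complete enzyme. The noncoding model Tet1-202, of 1505 nt, held 55.91% and 57.79% of the TPM, at 10.69 and 17.5 TPM. Tet1-206, the only model of the 2039-residue protein, held 23.82% and 18.18%, at 4.56 and 5.5 TPM. The incomplete coding model Tet1-205, of 1197 nt, held 17.95% and 18.98%. Only 169 bases of Tet1-202 and none of Tet1-205 are in no other Tet1 model. These shares therefore depend on how reads from shared sequence were assigned. By reads the order was the opposite, since Tet1-206 is 14369 nt long and took 1487.96 and 1383.99 counts, 77.3% and 70.8% of the gene, against 17.9% and 22.2% for Tet1-202. Over transcripts annotated as protein coding alone, incomplete models included, Tet1 averaged 10.61 TPM, below Dnmt3a and Mbd1. Over complete coding transcripts Tet1 had 4.56 and 5.56 TPM against 4.36 and 6.59 TPM for Tet2, so that Tet2 was the lower in replicate 1 and the higher in replicate 2.

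Tet3 also carried short models. Tet3-202, which encodes 1668 residues and starts inside the gene, held 56.74% and 45.14% of the TPM, at 15.05 and 17.93 TPM. Tet3-203, which encodes 1803 residues, held 14.33% and 14.18%, at 3.8 and 5.63 TPM. The longer protein is the form with the CXXC zinc finger, a domain that binds CG, and the form without it is the one known to predominate in neural cells. The intervals of Tet3-202 (14.15 to 15.22 and 16.69 to 18.01 TPM) lay above those of Tet3-203 (3.27 to 4.229 and 4.849 to 6.114 TPM) in both libraries. The fragment Tet3-204, of 469 nt, held 21.61% and 32.92% of TPM from 48.53 and 85.27 counts, which were 1.11% and 2.02% of the gene's counts. It is an incomplete coding model that starts upstream of Tet3-203. Which protein form it belongs to was not tested, so the order above holds for complete models only. Of the counts, Tet3-202 took 84.8% and 81.1%. Tet2 had a single model, which encodes 1912 residues.

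**Figure D3:**
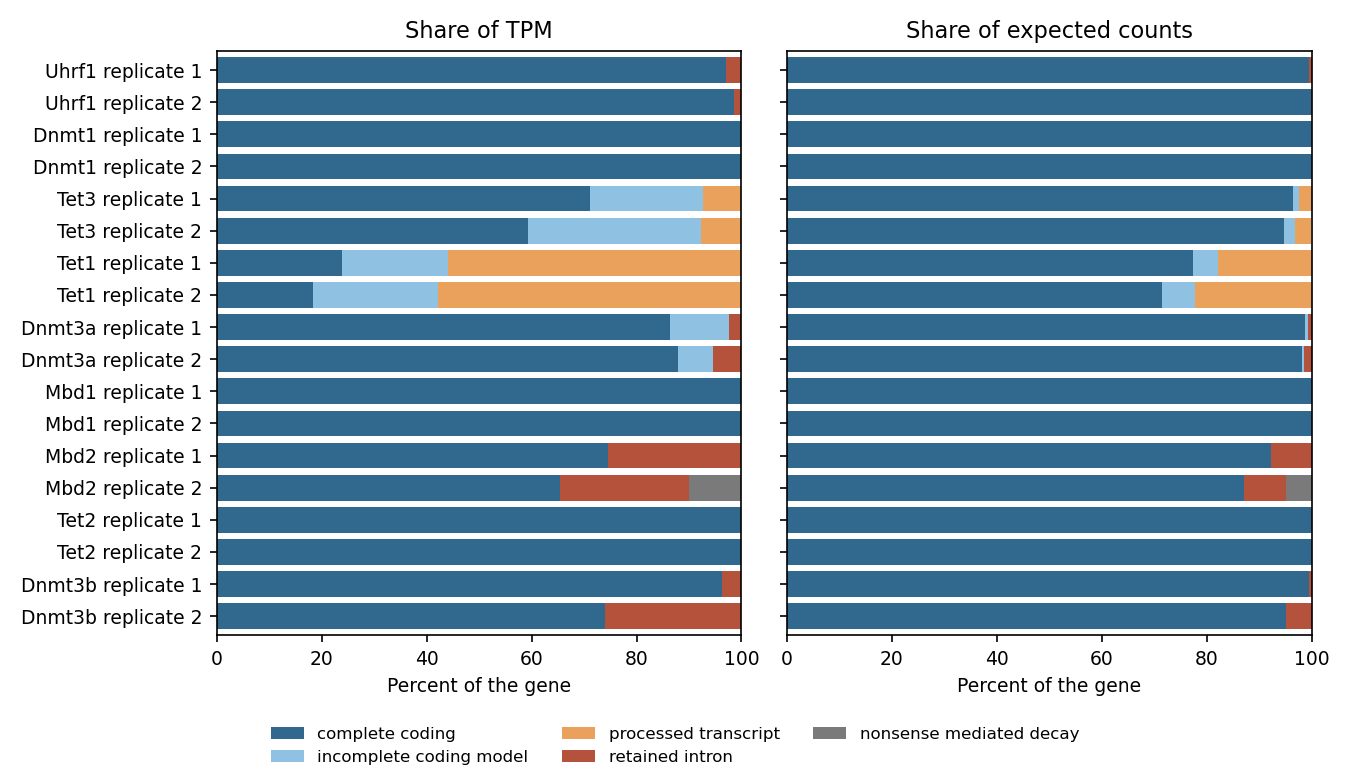
Percent of each gene by kind of annotated transcript in both libraries, as a share of TPM (left) and of expected counts (right). For complete coding transcripts of Tet1 the TPM share was 23.8% and 18.4% and the count share 77.4% and 71.5%, for those of Tet3 71.1% and 59.3% against 96.4% and 94.8%, while Dnmt1, Mbd1 and Tet2 had complete coding models alone.

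Mbd1, a methyl-CpG-binding repressor (ENSMUSG00000024561.8, chr18:74267605-74282732, plus strand), had 21.75 and 25.29 TPM from 1289 and 1154 counts. Mbd2, a methyl-CpG-binding subunit of the NuRD complex (ENSMUSG00000024513.12, chr18:70568189-70626131, plus strand), had 6.91 and 8.25 TPM from 203 and 175 counts. Mbd1 was higher in both libraries with intervals apart, and the log2 ratio of Mbd2 over Mbd1 was −1.64 ± 0.03. Mbd1 had 1 model, of 588 residues. Mbd2-201 (414 residues) held 44.6% and 40.31% of the TPM, Mbd2-202 (249 residues) 29.97% and 25.12%, and the retained-intron model Mbd2-204 25.44% and 24.47% from 15.88 and 14.06 counts. Complete coding transcripts of Mbd2 gave 5.15 and 5.4 TPM.

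Of 8 gene pairs compared within the libraries, 7 had intervals apart in both with the same direction, and the exception was Dnmt1 against Uhrf1. Several of the pairs share a gene and so are not independent. The share of other gene pairs that lie apart by this rule was not computed, so the count is not a trait of these members. With 2 libraries the smallest exact permutation p is 0.5, so these are descriptions of the libraries and not tests.

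The 8 members at a mean of 5 TPM or more were not called different between the libraries, like nearly all genes at that level. Dnmt3b, at a mean of 2.79 TPM, was below it. A gene was called different at a mean of 5 TPM or more, a 2-fold or larger ratio on the TPM + 1 scale, and intervals apart; 0.336% of the 11010 eligible genes were called (37 genes), and 0 of the 8 eligible members. At 1.5-fold 4.09% of genes were called and 1 member, Tet1, which was higher in replicate 2 as were 3.59% of genes. Intervals alone lay apart for 45.9% of genes and for 6 of the 8 members, 5 higher in replicate 2 (37.4% of all genes) and 1, Uhrf1, lower (8.47% of all genes). No replicate test stands behind these calls, since each library is alone on its side.

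The TET genes lay near the upper edge of all genes on the TPM scale. The log2 ratio of replicate 2 over replicate 1 on TPM + 1 was 0.64 for Tet1, 0.57 for Tet3 and 0.50 for Tet2, and 97.4%, 95.3% and 92.6% of eligible genes had lower ratios. For Uhrf1 it was −0.24, and 6.05% of genes were lower. The other members lay from 0.11 to 0.23, close to the median of 0.14. That median moved with the scaling, to −0.02 with TMM on counts and −0.19 with spike-in counts. Relative to it, Tet1 stood at 0.50 on TPM + 1 and 0.26 on counts, Tet3 at 0.43 and 0.18, Tet2 at 0.36 and 0.45, and Uhrf1 at −0.38 and −0.36. Dnmt3b moved most with the unit, from −0.03 to −0.37. Without regard to that median, 6 of the 8 members with a positive ratio on TPM + 1 turned negative when scaled to spike-in counts: Dnmt3b at −0.57, Mbd2 at −0.17, Dnmt1 at −0.16, Mbd1 at −0.12, Dnmt3a at −0.05 and Tet3 at −0.02. With TMM, Dnmt3b was also negative, at −0.40.

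**Figure D4:**
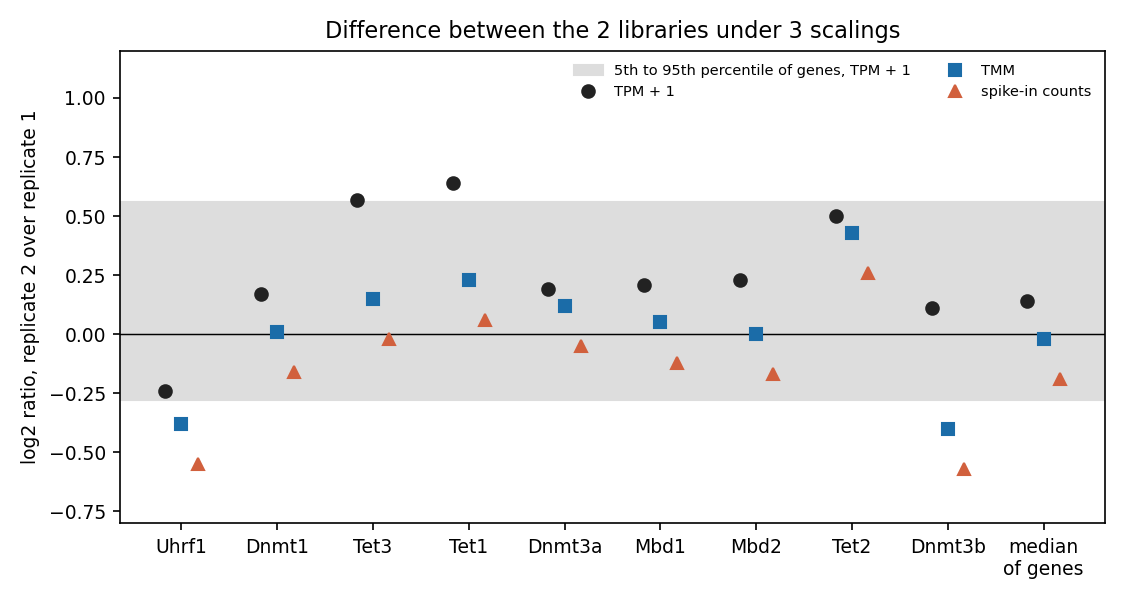
log2 ratio of replicate 2 over replicate 1 for the 9 genes and the median of eligible genes, on TPM + 1, on counts with TMM scaling and on counts scaled to spike-ins, with the 5th to 95th percentile of eligible genes on TPM + 1 (−0.28 to 0.56) as a band. Tet1 and Tet3 lay above the band on TPM + 1, and Uhrf1 was below 0 on each scale. The band applies to TPM + 1 only and is not a range for the count scales.

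As reads were assigned, the Tet1 and Tet3 ratios were larger over their other models than over their complete coding ones. In replicate 2 complete coding transcripts were 1.22-fold higher in TPM for Tet1 (4.56 and 5.56 TPM) and 1.25-fold higher for Tet3 (18.85 and 23.56 TPM), against 1.7-fold and 2.11-fold for all other transcripts of these genes. Tet3-204 rests on 48.53 and 85.27 counts, and its intervals overlapped between the libraries (2.413 to 9.487 and 7.48 to 17.54 TPM). Those of Tet1-202 lay apart (9.133 to 11.81 and 15.12 to 18.84 TPM), but only 169 of its bases are in no other Tet1 model. Whether the difference lies in the transcripts or in the assignment of reads was not tested. For Tet2, with 1 model, the fold was 1.51. The median for cycling markers was −0.18 on TPM + 1, with intervals apart and lower in 6 of 7, and the median for neuron markers 0.30, with intervals apart and higher in 6 of 6. It was 0.39 for red blood cell markers, with intervals apart and higher in all 5 eligible genes, and −0.16 for radial glia, with 3 of 7 apart and higher and 3 lower. The part of these cell types in the ratios of the members was not tested.

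Genes that work with these 9 were described from 7 lists, in none of which any gene was called at 2-fold (background 0.336%). All 8 partners of maintenance methylation were at 1 TPM or more in both libraries, with a median of mean TPM of 47.33. They were led by Pcna, the replication clamp, at 199.3 ± 20.8 TPM, Cdca7 at 96.01 ± 0.325, Pclaf at 48.86 ± 1.77 and Lig1, the replicative DNA ligase, at 47.75 ± 3.22. Of the 5 genes of de novo methylation in germ line and imprints, Trim28, a corepressor of zinc-finger proteins, had 250.6 ± 28.6 TPM and Zfp57, which guards imprints, 197.8 ± 44.7. Dnmt3l, the germ-line cofactor of de novo methylation, and Dppa3, an oocyte and germ-cell protein that opposes UHRF1, had 0 counts in both libraries, and a count of 0 allows up to 3 counts. The remaining member, Dnmt3c, had 0.07 and 0.14 TPM.

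Of 13 genes that remove oxidised or deaminated cytosine, 11 were at 1 TPM or more in both libraries. Apex1, an endonuclease of base excision repair, had 294.1 ± 11.4 TPM, Tdg, the glycosylase that cuts out oxidised cytosine, 192.1 ± 0.339, Parp1 103.1 ± 6.24 and Gadd45g 102.6 ± 9.68. All 6 TET cofactor genes were expressed, with the isocitrate dehydrogenases Idh1 at 452.4 ± 5.4, Idh2 at 275.7 ± 8.91 and Idh3a at 110.6 ± 17.3 TPM, and Ogt, a sugar transferase that binds TET proteins, at 191.4 ± 33. Each of these stood above every member in level.

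All 8 genes listed as other methyl-CpG readers or their relatives were expressed too, with a median of mean TPM of 9.33. Binding of methylated CG by each of them was not examined. Mbd3, the NuRD subunit related to Mbd2, had 184.9 ± 6.05 TPM, Zbtb38 36.58 ± 8.58 and Mbd5 18.33 ± 4.34. Of the 8 CXXC genes, whose zinc fingers mostly bind unmethylated CG, Kdm2b had 75.39 ± 13.3 TPM, Cxxc1 41.61 ± 4.72, Cxxc5 36.63 ± 2.4 and Kdm2a 19.74 ± 3.85. The 9 genes of methyl donor supply were led by Mat2a, which makes S-adenosylmethionine, at 276.4 ± 10.1 TPM, followed by Ahcyl1 at 88.52 ± 1.02, Mat2b at 73.82 ± 2.97 and Ahcy at 48.19 ± 3.49.

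Of 9 annotated genes overlapping the members, the 6 with values had few reads, and Gm48353, Gm42567 and 5430434F05Rik, which overlap Tet1, Tet2 and Tet3, were not analysed here. The antisense genes Dnmt3aos and Dnmt3bos had 2 and 1 and 1 and 0 counts, and B230319C09Rik, on the strand opposite Tet3, had 7 and 1 counts, or 0.35 and 0.04 TPM. The strand setting of the counting is not given in the sources used here, and reads of opposite-strand partners may be mixed.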

How the data were processed

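Total RNA was sequenced in 2 libraries labelled as single forebrains. The authors assigned reads to mm10 (GRCm38) with GENCODE M4, per the files' notes, and the aligner, quantifier and strand setting are not given in the sources used here. Per the file headers, the deposited values are expected counts, TPM, posterior mean TPM, TPM intervals and each transcript's share of its gene's TPM as a percent. Names, coordinates and protein lengths came from GENCODE M21, matching 42462 of 43346 genes. 4 member transcripts, the 3 of Dnmt1 and that of Mbd1, differ in length between the releases.

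Computed here were means, SDs, log2 ratios of TPM (pseudocount 1 between libraries, none within), percentiles, and shares of transcripts joined by protein length or by starts within 100 bases. edgeR 4.0.16 (TMM) and DESeq2 1.42.0 (size factors) scaled counts rounded to whole numbers, and edgeR put the biological coefficient of variation at 0.13 over 16155 genes. The 97 control sequences made up 1.87% and 2.19% of the totals. With 1 group no test was made, and intervals cover counting and assignment error only. The call rule was run on simulated data for the comparison of the 2 libraries: of 10998 genes with counting noise alone, 100 of 100 eligible genes raised 3-fold, 90 of 91 lowered 3-fold and 0 of 10734 unchanged were called. The intervals there were computed from the simulated counts and were not the deposited ones. Read assignment error and variation between libraries were left out. The run shows that the rule works as written, and it does not measure its error rate in these libraries.

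The text names all members, their transcripts with a mean share of 10% or more or the highest share of their gene, from each list the 4 genes at most with the top mean TPM and those under 0.1, and overlapping genes at a mean TPM of 0.1 or more. Named outside that rule, after their values were seen, were Dnmt1-203, Dnmt3a-210, Uhrf1-202, Dnmt3aos, Dnmt3bos and 3 overlapping genes without values. 1 gene of the lists that this rule names is not reported here, but counts and medians include it. The members and lists were chosen with earlier results of these data known. Alternatives covered the estimate of TPM, the transcripts included, the pseudocount and filter, scaling, joining of starts and leaving out a library.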

Additional observations from a re-analysis of the deposited data

How the results depend on the processing

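No paired analysis was possible because there is only 1 group. Of the values that answer a comparison, 78 kept their direction and call under an alternative (levels and shares: stayed within 1 SD, counts: within 1.5 times). Of the rest, 12 moved past these limits, 2 reversed, 1 became stronger and 1 weaker. Among the other values 60 stayed the same, 11 moved and 10 reversed. With 2 libraries, the level or share of a single library always lies within 1 SD of the mean. Leaving out a library therefore could not move a level or share, and those entries were bound to count as the same. The limit also widens with the SD, so noisy values pass more easily and these tallies do not measure robustness. Leaving out a library in turn gave 3 to 5 neighbours with intervals apart (5 without replicate 2, 3 with both) and a log2 ratio of Dnmt1 over Uhrf1 of −0.28 to 0.15, apart only without replicate 2; with counts not divided by length it turned to 0.60. That setting put Dnmt1 over Dnmt3a at 0.06, no longer called. At 1.5-fold, 1 member differed between the libraries in place of 0. Ratios between the libraries that turned negative were those of Dnmt1 (−0.16), Dnmt3a (−0.05), Dnmt3b (−0.57), Tet3 (−0.02), Mbd1 (−0.12) and Mbd2 (−0.17) with spike-in counts, and of Dnmt3b (−0.40) and, by less than the rounding, Mbd2 (−0.00) with TMM or DESeq2 size factors. Tet3 over Tet1 and Tet2 over Tet1 kept their direction but moved, to 1.15 and −0.99 in counts and to 1.53 and −0.95 over protein-coding transcripts. As shares of expected counts, which weight long transcripts, the forms held 76.3% (908-residue) and 22.1% (689-residue) of Dnmt3a, 74.0% of Tet1 (2039-residue), 83.0% and 12.7% of Tet3 (1668-residue and 1803-residue) and 63.2% of Mbd2 (414-residue). By posterior mean TPM the 908-residue Dnmt3a held 50.4% and the 776-residue Dnmt3b 30.5%. The share of the Uhrf1-201 start was 97.8% with starts joined within 1000 bases and 28.9% with none joined. For shares of counts and for joined starts the change follows from how the alternative is built, and elsewhere the cause was not tested. Depth limits Dnmt3b and Mbd2, the members with the fewest counts.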
